A study of Mus musculus with 18 samples.

Results

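The imprinted Dlk1-Dio3 miRNAs are the small RNAs of one long cluster on mouse chromosome 12. They were picked from a small RNA sequencing table of mouse kidney by name, as mouse entries bearing one of 46 miRNA numbers of that cluster. The choice gave 59 entries, each with a name of its own, out of 1534 entries in the table, of which 1184 carry a miRNA name. The 59 members come from 42 hairpin names, and 40 of the 46 numbers matched an entry.

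The series is titled as a miRNA study of germacrone, a plant sesquiterpene, in diabetic nephropathy (DN), the kidney damage of diabetes. There are 6 libraries in each of 3 groups. Control kidneys came from C57BL/6J mice given 0.9% saline, DN kidneys from C57BL/KsJ mice given 0.9% saline, and treated kidneys from C57BL/KsJ mice labelled as germacrone-treated DN at 10 mg/kg/day. Strain therefore goes with the group, so disease and strain cannot be told apart in any comparison with control. The labels used here give no diabetes genotype, age, sex or duration of treatment, and do not state whether libraries come from different animals. The p-values therefore cover the scatter among these libraries alone, which may be technical. Control libraries held 3699175 to 6652698 counts each, DN libraries 3639790 to 7236246, and treated libraries 3653801 to 5969381. Libraries are named by group and label number, and levels are given in CPM, the count scaled to a common library size. Kidney epithelial miRNAs, the check of the labelled tissue, summed to between 74300 and 279000 CPM, lowest in DN 2. DN 2 also correlated least with its own group (median r of log2 CPM 0.896), before DN 3 (0.926) and control 2 (0.946), where the other libraries had at least 0.958; results below are therefore given with and without the libraries they rest on.

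In this imprinted domain the maternal chromosome transcribes long noncoding RNAs, Meg3, Rian and Mirg, from which the miRNAs are cut, while the paternal chromosome expresses the protein-coding genes Dlk1, Rtl1 and Dio3. The miRNAs are abundant in embryo, placenta and brain and generally low in adult epithelial organs. A stretch of the cluster that begins at miR-379 has been described as induced in glomeruli of diabetic mice.

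RefSeq coordinates on GRCm38.p6 place the 40 matched hairpins on chromosome 12 between 109571990 and 109743795, all on the plus strand except 1. Dlk1 lies before them (109452823 to 109463336) and Dio3 after them (110279068 to 110281097). The first 11 hairpins precede miR-379, and are called the Meg3-Rtl1 part here. Among them, 5 lie on the strand opposite to Rtl1 (109589193 to 109600330), within its exon, so their miRNAs are fully complementary to the Rtl1 transcript. The hairpins from miR-379 onward, called the Mirg part, include 12 inside the annotated Mirg gene (109729764 to 109749460). A further hairpin lies within Rian, and 22 lie in none of Rtl1, Rian and Mirg.

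The sequences below, from RefSeq (GRCm38.p6), are the 6 most abundant members that have the highest weight in what follows, ordered along the locus, with the seed (bases 2 to 8) in capitals.
miR-127-3p: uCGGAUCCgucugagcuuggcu
miR-434-3p: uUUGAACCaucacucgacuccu
miR-136-3p: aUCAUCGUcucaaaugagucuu
miR-379-5p: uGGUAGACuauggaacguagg
miR-411-5p: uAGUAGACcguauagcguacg
miR-541-5p: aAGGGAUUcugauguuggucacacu
miR-127-3p lies at chr12:109592888-109592909, miR-434-3p at chr12:109594565-109594586 and miR-136-3p at chr12:109595366-109595387, each opposite the Rtl1 exon. miR-379-5p is at chr12:109709065-109709085, miR-411-5p at chr12:109710190-109710210, and miR-541-5p at chr12:109742422-109742446 inside an intron of Mirg.

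Sequences of 56 of the 59 members matched RefSeq, with 23.8% to 68.2% G and C. These members almost never share a seed: only 1 seed, AUGUAAC, occurs on more than 1 of them, in the opposite-arm products of the neighbouring hairpins miR-379 and miR-411.
miR-379-3p: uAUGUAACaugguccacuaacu
miR-411-3p: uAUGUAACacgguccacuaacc
The low-abundance members that come nearest to a difference between groups, or that lie at the ends of the range of base composition among tested members, are these.
miR-433-3p: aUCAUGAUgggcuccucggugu
miR-329-5p: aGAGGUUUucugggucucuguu
miR-329-3p: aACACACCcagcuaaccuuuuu
miR-134-5p: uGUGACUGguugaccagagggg
miR-409-3p: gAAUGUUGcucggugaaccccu
miR-369-3p: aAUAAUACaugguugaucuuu
The 2 members named miR-299b come from the minus strand opposite the hairpin of miR-299a, and their sequences lie within those of miR-299a.
miR-299b-3p: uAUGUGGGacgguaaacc
miR-299a-3p: uAUGUGGGacgguaaaccgcuu
The 18 bases of miR-299b-3p are the first 18 of the 22 of miR-299a-3p, and miR-299b-5p is likewise contained in miR-299a-5p from base 2. Reads of the shorter form cannot be told apart from those of miR-299a, so values for miR-299b are uncertain as to which strand they came from.

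In kidney the cluster was faint and uneven. All members summed were 0.0125% of counts in treated 4 and 0.136% in DN 2, and the most abundant member, miR-127-3p, ranked 162 of 735 mouse miRNA names by mean CPM. Mean levels were at least 10 CPM for 8 members and under 1 CPM for 25. Only 10 members had counts in all 18 libraries and 9 had them in a single library, which was DN 2 for 7 of the 9. Of 1062 member values 462 were listed at 0. None lay above 0 and under 5 counts, while 52 were exactly 5, so a 0 may stand for up to 4 counts. In CPM, 5 counts were worth 0.678 to 1.57.

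A filter on low counts left 29 members in the test, 7 of 17 in the Meg3-Rtl1 part and 22 of 42 in the Mirg part. The other 30 members averaged at most 1.79 CPM and are counted but not tested. In bulk kidney, fewer cells of a type and less RNA per cell cannot be told apart.

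Summed over all 59 members, control libraries had a lowest, median and highest level of 217.8, 372 and 1027 CPM (mean 482 ± 301, SD, n = 6). DN libraries had 169, 357 and 1133 CPM (457 ± 342, n = 6), and treated libraries 138, 263 and 538 CPM (315 ± 180, n = 6). The ranges of the 3 groups overlapped in part. Treated 4, treated 1 and treated 5 (138, 171 and 184 CPM) and DN 6 (169 CPM) lay under every control library, and no treated library passed 538 CPM. The 2 highest libraries, DN 2 and control 4, were each 3.18 times the median of the other 5 libraries of their group. Control 2 came next at 621 CPM, which was 1.92 times that median in its group. Treated 3 and treated 2 stood further above their own group, at 2.92 and 2.82 times the median of its other libraries. Without DN 2, control 4 and control 2 the level ran from 138 to 538 CPM over the remaining 15. The treated group then held both the lowest and the highest library.

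**Figure D1:**
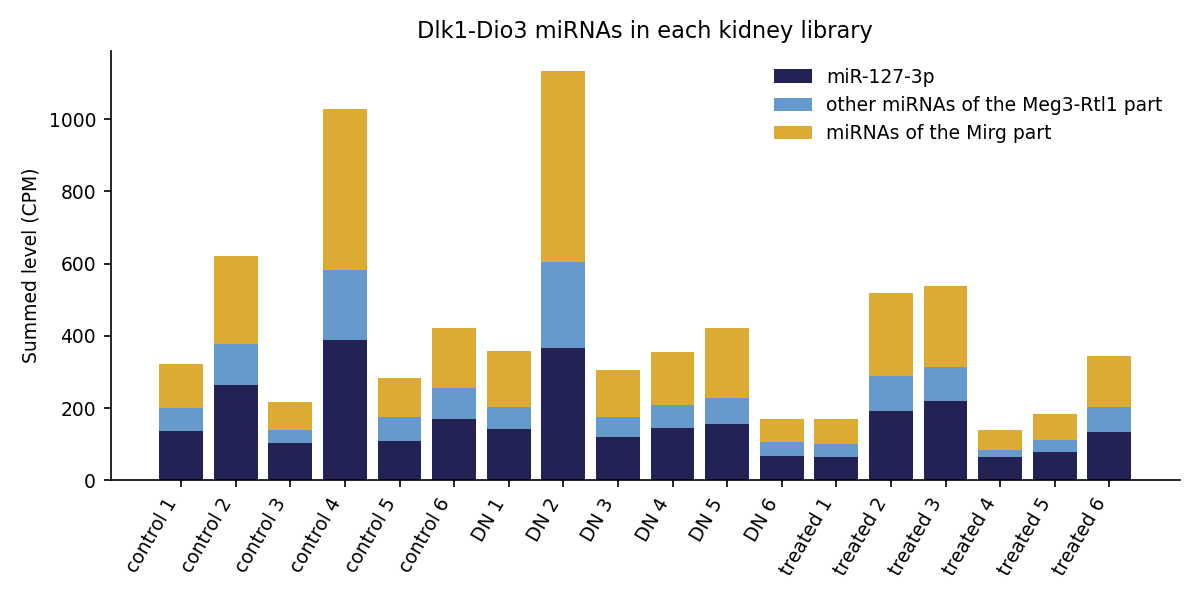
Summed CPM of the 59 Dlk1-Dio3 miRNAs in each kidney library (bars, linear axis from 0), split into miR-127-3p, the other miRNAs of the Meg3-Rtl1 part and those of the Mirg part; colours mark the 3 portions. DN 2 (1133 CPM), control 4 (1027) and control 2 (621) are the 3 highest. miR-127-3p makes up 32.3% of the sum in DN 2 and 46.4% in treated 4, the lowest library. The Mirg part makes up 46.7% and 38.3% in these libraries.

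High libraries were high for nearly the whole cluster. DN 2 had the highest value of its group for 29 of 29 tested members and the highest of all 18 libraries for 17. Control 4 led its group for 24 and all libraries for 12, and control 2 led the control group for the other 5. In the treated group, treated 2 was highest for 16 members and treated 3 for 10, while treated 4 was lowest or tied lowest for 17. Detection followed the same order: members with counts numbered 56 in DN 2, 46 in control 4 and 44 in control 2, and 17 in treated 4. Of the 30 untested members, 27 had counts in DN 2, which held the highest value for 19 of them.

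Expressed as the mean over the 29 tested members of log2 CPM relative to each member's own mean over 18 libraries, the level was 1.96 in DN 2, 1.66 in control 4 and 0.83 in control 2. It was 0.58 in treated 2 and 0.50 in treated 3. At the low end were treated 4 (−1.65), DN 6 (−1.19) and treated 1 (−1.09). DN 6 and DN 2 carry the same group labels, and the summed level ran from 169 to 1133 CPM between them, while the 3 group medians lay between 263 and 372 CPM.

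**Figure D2:**
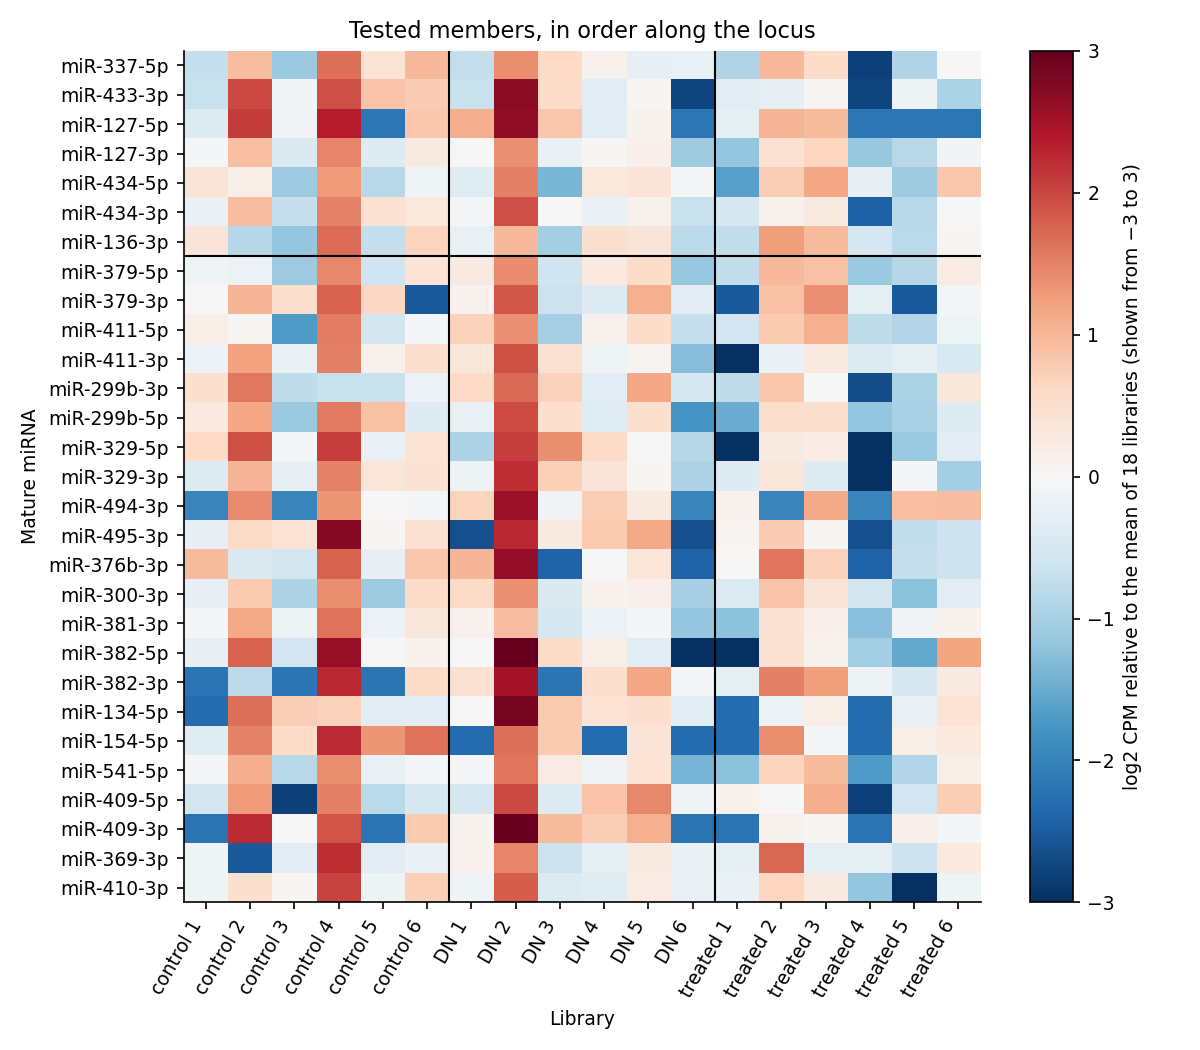
Log2 CPM of each of the 29 tested members (rows, in order along the locus, with the line between the Meg3-Rtl1 and Mirg parts) relative to its own mean over 18 libraries (columns, with lines between groups); the colour scale runs from −3 to 3. The columns of DN 2 and control 4 are high for nearly every row, and those of treated 4 and DN 6 are low.

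The most abundant members came from both parts. miR-127-3p, a miRNA known for cleaving the Rtl1 transcript, had 103.7, 152.5 and 388 CPM in control (lowest, median and highest), 66.7, 143.4 and 366 in DN, and 63.1, 106 and 220 in treated libraries. Its highest values were in control 4 and DN 2, and the groups overlapped. It made up 32.3% (DN 2) to 47.6% (control 3) of the summed level, with a median of 39.8%.

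miR-434-3p, also processed opposite Rtl1, had 21.0, 44.3 and 96.2 CPM in control, 21.4, 33.7 and 131 in DN, and 5.83, 28.7 and 40.8 in treated libraries. DN 2 was the only DN library above 37.0 CPM, and treated 4 was the only treated library under 18.9. miR-136-3p, from the same strand opposite Rtl1, had 4.80, 10.6 and 36.6 CPM in control, 5.24, 12.1 and 22.3 in DN, and 6.19, 9.58 and 27.2 in treated libraries. Here control 4, treated 2 and DN 2 were highest, and control 2 was among the low controls at 5.97 CPM.

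miR-379-5p, the first miRNA of the Mirg part, had 12.5, 24.6 and 74.8 CPM in control, 12.2, 33.4 and 73.5 in DN, and 12.4, 24.2 and 54.5 in treated libraries. Its neighbour miR-411-5p had 6.09, 20.8 and 61.5 CPM in control, 10.3, 26.8 and 55.0 in DN, and 11.3, 16.5 and 43.9 in treated libraries. The 3 group ranges overlapped for each, and control 4 and DN 2 were the 2 highest libraries for both. The ratio of miR-411-5p to miR-379-5p stayed between 0.485 (control 3) and 1.05 (DN 6), with a median of 0.777, while the summed level varied 8.23-fold over the libraries.

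miR-541-5p, near the end of the cluster, had 12.5, 21.7 and 59.8 CPM in control, 8.37, 24.1 and 69.3 in DN, and 6.59, 18.9 and 43.6 in treated libraries. DN 2, control 4 and control 2 were at the top and treated 4 at the bottom. miR-300-3p had 4.63, 11.8 and 27.6 CPM in control, 4.90, 11.2 and 26.9 in DN, and 4.13, 7.81 and 18.7 in treated libraries. The Mirg part as a whole made up 36.0% (control 3) to 46.7% (DN 2) of the summed level, with a median of 41.0%.

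Each hairpin yields an arm from its 5′ side and an arm from its 3′ side, of which one is usually kept. The 3p arm took 97.0% to 100% of the 2 arms of miR-127 in all libraries. The other arm, miR-127-5p, had counts in only 13 libraries, and a share of 100% stands for a library where it was listed at 0. For miR-434 it took 43.4% (treated 4) to 91.3% (DN 3), with a median of 81.5%. In miR-379 and miR-411 the 5p arm was the abundant one, and the 3p arm took at most 19% (median 8.19%) and 32.9% (median 13.7%). These 3p arms had counts in 15 and 17 libraries and were listed at 0 in the rest. Both arms of miR-434 were well counted, with miR-434-5p at 2.68 to 26.8 CPM, so that spread is not one of zeros. For the hairpins of miR-299b, miR-329, miR-382 and miR-409 many arm values were listed at 0 or near 5 counts, and their shares are not given.

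Between DN and control kidneys the cluster did not differ detectably. The edgeR quasi-likelihood test with Benjamini-Hochberg adjustment called 0 of the 29 tested members, and in the whole table it called 0.0% of 619 entries. At an unadjusted p under 0.05 there were 0 members against 7.59% of all entries (5.17% higher and 2.42% lower in DN), and 0 members had groups that did not overlap. DESeq2 called 0 members and 3 entries, and limma-voom with sample weights called 2 members and 91 entries, as given with the alternatives in the closing section. By fold change 12 of 29 members were higher in DN (56.5% of all entries), with a median log2 fold change of −0.07 (0.075 over all entries).

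The members with the smallest p were faint. miR-381-3p had 3.66, 4.74 and 13.7 CPM in control and 1.63, 3.84 and 8.29 in DN, with 5 of 6 DN libraries under the control median. Its log2 fold change was −0.68 (SE 0.464, edgeR adjusted p = 0.706, n = 6 against 6). miR-154-5p had 1.16, 4.96 and 9.19 CPM in control and 0.0, 1.12 and 5.97 in DN, where 3 of 6 libraries were listed at 0. For miR-154-5p the log2 fold change was −1.31 (SE 0.997, edgeR adjusted p = 0.794).

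miR-134-5p, known as a regulator of dendritic spines in neurons, had 0.0, 2.04 and 5.97 CPM in control and 1.22, 2.37 and 14.4 in DN. Its log2 fold change of 0.81 (SE 0.851, edgeR adjusted p = 0.864) was −0.12 without DN 2, the library at 14.4 CPM. miR-299b-3p (0.54, adjusted p = 0.869) and miR-382-3p (0.79, adjusted p = 0.870) completed the 5 of smallest p. On leaving out 1 library, miR-299b-3p ran from 0.23 (without DN 2) to 1.23 (without control 2). miR-382-3p was at 0.043 without DN 2 and at 2.53 without control 4 (edgeR unadjusted p = 0.0282, adjusted p = 0.642). It was listed at 0 in control 1, control 3 and control 5. For miR-127-3p the log2 fold change was −0.23, with a 95% interval of −1.12 to 0.66.

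Which way the members pointed depended on single libraries. Without DN 2, 3 of 29 members were higher in DN than in control (52.5% of all entries). The median log2 fold change was then −0.62 (0.02 over all entries). Without control 4, 26 of 29 were higher (64.9% of all entries) and the median was 0.43 (0.16 over all entries). Leaving out control 2, control 4 and DN 2 together left 26 tested members, of which 15 were higher (58.3% of all entries). Their median was 0.04 (0.09 over all entries).

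Treated kidneys were compared with DN kidneys of the same strain, which addresses germacrone. No member was called by edgeR (0 of 29, against 0.0% of 619 entries), DESeq2 or limma-voom, and 0 members had an unadjusted p under 0.05 against 3.72% of all entries (0.808% higher and 2.91% lower). That count moved with the processing. With entries listed at 0 set to 4 counts, 5 of 29 members were lower at this unadjusted p (4.52% of entries were lower, 5.33% in either direction). With RLE factors 3 were lower (3.72% of entries lower, 4.36% in either direction), and with library size only 3 (5.82% and 5.98%). Without DN 6 there were 6 (5.83% and 7.24%), and without DN 2 there were 0. Lower fold changes were common among members: 2 of 29 were higher in treated kidneys (42.2% of all entries), with a median log2 fold change of −0.74 (−0.054 over all entries). The 2 that were higher were miR-136-3p (0.13) and miR-369-3p (0.04).

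miR-329-3p had 2.04, 5.05 and 21.2 CPM in DN and 0.0, 3.13 and 5.5 in treated libraries, and miR-329-5p had 1.34, 3.74 and 13.5 in DN and 0.0, 1.70 and 3.58 in treated. For miR-329-5p all 6 treated libraries lay under the DN median. Treated 1 and treated 4 (both listed at 0.0) and treated 5 (1.13 CPM) were also under the lowest DN value. The log2 fold change was −1.33 for miR-329-3p (SE 0.641, edgeR adjusted p = 0.800) and −1.65 for miR-329-5p (SE 0.800, edgeR adjusted p = 0.800).

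miR-134-5p had 0.0, 1.34 and 2.27 CPM in treated libraries, and all 6 were under the DN median of 2.37. Its log2 fold change was −1.87 (SE 0.898, edgeR adjusted p = 0.800). miR-409-3p had 0.0, 3.01 and 14.3 CPM in DN and 0.0, 1.51 and 1.69 in treated libraries (log2 fold change −2.0, SE 1.09, edgeR adjusted p = 0.800). In both members the highest DN value came from DN 2. miR-433-3p, at 0.0, 2.14 and 17.3 CPM in DN and 0.0, 1.85 and 2.51 in treated libraries, had a log2 fold change of −1.53 (edgeR adjusted p = 0.800).

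The lower fold changes in treated kidneys rested largely on DN 2. Without it 12 of 29 members were higher in treated kidneys (45.6% of all entries). The median log2 fold change was then −0.05 (−0.03 over all entries). DN 2 was the highest DN library for all 29, so leaving it out lowered the DN level of each. The high treated libraries, treated 2 and treated 3, stayed in. By member, the log2 fold change became −0.03 for miR-127-3p (from −0.41), −0.25 for miR-434-3p (from −0.84), −0.33 for miR-433-3p (from −1.53) and −0.69 for miR-329-3p (from −1.33). For miR-134-5p it went from −1.87 to −0.93, for miR-409-3p from −2.0 to −1.11 and for miR-329-5p from −1.65 to −1.18, each without a call.

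Against control, which differs in strain as well as in disease and treatment, treated kidneys had 2 of 29 members higher (49.8% of all entries) and a median log2 fold change of −0.85 (−0.004 over all entries). This comparison shares the treated libraries with the one against DN. Again edgeR called 0 of 29 members and 0.0% of 619 entries. At an unadjusted p under 0.05, 2 members (6.9%) were lower, against 8.89% of all entries lower and 19.5% in either direction. The count of lower members was 5 with entries listed at 0 set to 4 counts (10.2% of entries lower, 20.5% in either direction). It was 5 with library size only (16.8% and 21.6%), 4 without DN 2 (11.9% and 25.9%) and 0 without control 2 or without control 4. Groups did not overlap for 0 members, against 5.17% of entries (3.55% higher and 1.62% lower). DESeq2 called 0 members and 17 entries, and limma-voom 1 member and 106 entries.

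The 2 members were miR-329-5p and miR-433-3p. miR-329-5p had 2.44, 4.32 and 13.7 CPM in control and 0.0, 1.70 and 3.58 in treated libraries, and all 6 treated libraries lay under the control median. Its log2 fold change was −1.94 (SE 0.798, 95% interval −3.61 to −0.28, edgeR adjusted p = 0.202). miR-433-3p, encoded opposite Rtl1, had 1.35, 4.44 and 10.6 CPM in control, and its log2 fold change was −1.83 (SE 0.860, 95% interval −3.63 to −0.03, edgeR adjusted p = 0.253). Treated 1 and treated 4 were listed at 0 for miR-329-5p, and treated 4 for miR-433-3p.

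miR-411-3p (log2 fold change −1.19, edgeR adjusted p = 0.313), miR-434-3p (−0.91, adjusted p = 0.313) and miR-381-3p (−0.87, adjusted p = 0.32) followed. For miR-434-3p and miR-411-3p all 6 treated libraries were under the control median. Without control 4 the count became 8 of 29 higher (51.7% of all entries) with a median of −0.52 (0.03 over all entries). Without control 2, control 4 and DN 2 it was 10 of 26 (52.2% of all entries) with a median of −0.05 (0.03 over all entries). miR-329-5p was then at −1.01 and miR-433-3p at −0.98. These 3 libraries were picked for their high cluster level and none is treated, while treated 2 and treated 3 stayed in. Treated fold changes therefore had to rise, and the omission cannot decide whether treated kidneys differ.

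**Figure D3:**
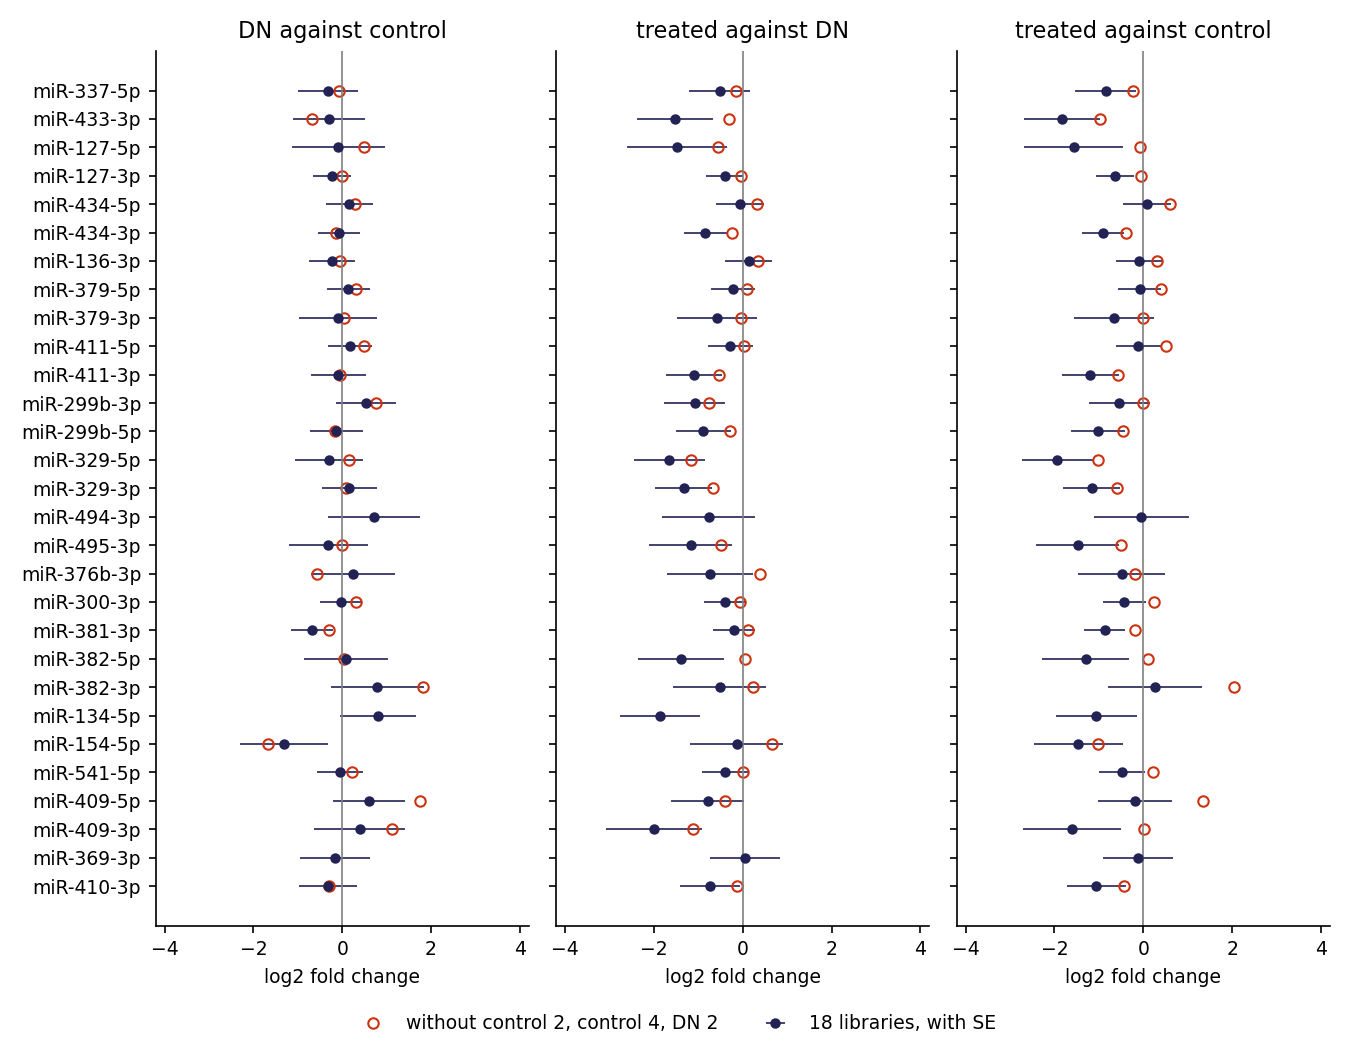
Log2 fold change of the 29 tested members in the 3 comparisons, from 18 libraries (filled points, bars are 1 SE) and without control 2, control 4 and DN 2 (open points, for the 26 members then tested); the vertical line is 0. In the treated comparisons the filled points lie mostly left of 0, with medians of −0.74 and −0.85. The open points lie closer to it, with medians of −0.10 and −0.05. The 3 libraries left out have the highest cluster levels and none is treated, so this shift follows from their choice.

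The 3 high libraries did not share one profile within the cluster. In control 2 the relative level of a member went with the base composition of its sequence: Pearson's r between relative level and percent of G and C was 0.727 across 29 members, and 0.597 across 343 other mouse miRNAs of the same library. Members share the library, and similar sequences can share reads, so these are descriptions. The 11 members with at least 50% G and C averaged 1.42 in control 2 and the 18 others 0.47. miR-369-3p, with 23.8% G and C, was listed at 0 there, and miR-134-5p, with 59.1%, was at 5.97 CPM, the highest control value. DN 3 had a smaller r of 0.481 across members and 0.515 across the other miRNAs. Across these other miRNAs r was 0.428 in control 3, −0.305 in control 6 and −0.327 in DN 6. It was −0.366, −0.41, −0.298 and −0.386 in treated 1, treated 2, treated 3 and treated 4, and 0.0823 and −0.0333 in treated 5 and treated 6.

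In DN 2 and control 4 members of both kinds were high. The averages were 2.13 (50% G and C or more) and 1.86 (under 50%) in DN 2, and 1.53 and 1.74 in control 4. The r across members was 0.192 in DN 2 and −0.317 in control 4. What part base composition has in the level of control 2, or in the comparisons between groups, was not tested.

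**Figure D4:**
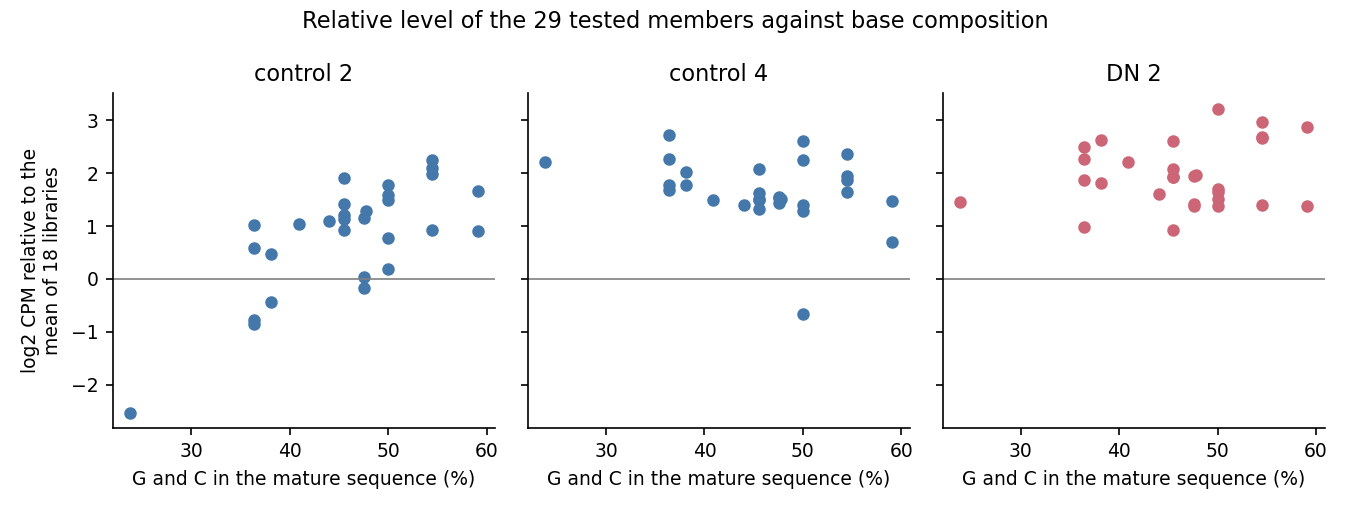
Log2 CPM of each of the 29 tested members relative to its mean over 18 libraries (vertical axis) against percent of G and C in its mature sequence (horizontal axis), in control 2, control 4 and DN 2; each point is 1 member. Points climb with G and C in control 2 (r = 0.727) and lie high across the range in the other 2 libraries.

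Levels of cell type miRNAs differed between the high libraries. In DN 2 the leukocyte list (miR-142a, miR-146a, miR-150, miR-155 and miR-223, 9 names in the table) summed to 23200 CPM, the highest of 18 libraries, while DN 6 had 1345 CPM and controls had 2789 to 3710. The fibroblast list (miR-199a, miR-199b and miR-214) reached 9772 CPM in DN 2, and the remaining DN libraries had 2681 to 3256. DN 2 was also lowest of all 18 libraries for the kidney epithelium list (miR-192, miR-194, miR-204, the miR-200 family and others), at 74300 CPM, with 145700 to 248800 in the rest of the group. Lists for endothelial cells (8007 CPM), red blood cells (1272 CPM) and striated muscle (43.8 CPM) were likewise lowest of 18 in DN 2. Other libraries came close: DN 3 (8034 CPM) and control 2 (9172) for endothelial cells, and treated 3 (1346) for red blood cells. Within the striated muscle list, miR-206-3p went the other way, at 8.73 CPM in DN 2 and 5.11 in control 4, the next library. Its smooth muscle and pericyte list ranked 15 of 18, at 29390 CPM, and its liver miRNA, miR-122-5p, ranked 2, at 91.2 CPM. Whether these differences have a part in the level of the cluster in DN 2 was not tested. Treated 6 came second for the leukocyte sum at 8497 CPM, of which miR-146a-5p made up 7613 CPM, and the mean relative level of the list there was 0.33 against 3.6 in DN 2.

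Control 4 had a different set. Its neuroendocrine list (miR-7, miR-9, miR-124, miR-129, miR-218 and miR-375) summed to 1424 CPM against 554 to 984 in the other controls. The next library was treated 1 at 1181 CPM. miR-124-3p, the neuronal miRNA, was at 325 CPM in control 4 and at most 45.6 in every other library. miR-9-5p was also highest there, at 252 CPM against at most 182 elsewhere. miR-375-3p (137 CPM), miR-7a-5p (260) and miR-218-5p (308) were not, with up to 289, 361 and 395 CPM in other libraries. The list was thus not high in all its members. The striated muscle list was at 309 CPM in control 4 against 80.8 to 94.5 in the other controls, while its leukocyte list (3382 CPM) lay within the control range. In control 2 the neuroendocrine list was the lowest of 18 libraries, at 554 CPM. The part of these lists in the cluster's level in control 4 was not tested.

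Other imprinted miRNAs were read beside the cluster. The Gnas locus, an imprinted domain on another chromosome, gives miR-296 and miR-298, of which 3 names are in the table and 1 was tested. Their sum was 51.7 CPM in DN 2, 15.9 in control 4 and 12.5 in control 2, the 3 highest of 18 libraries. The rest of the DN group had at most 4.81 and treated libraries at most 2.9. The tested name, miR-296-5p, was at 18.5 CPM in DN 2, but at 3.27 in control 4 and 4.2 in control 2, against 3.71 in DN 3. The untested miR-296-3p and miR-298-5p, with counts in 6 libraries each, made up the rest. The Sfmbt2 intron miRNAs, which are imprinted and known from placenta (32 names, 7 tested), summed to 265 CPM in DN 2, with 21.8 to 60.5 in the rest of the DN group and 47.6 to 68.0 in control, so that control 4 (56.4 CPM) did not stand out. miR-335 of the imprinted Mest intron was not high in any of the 3: 109 CPM in DN 2, 185 in control 4 and 70.7 in control 2, of which the last was the lowest of 18. In each comparison edgeR called 0 members of these lists.

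**Figure D5:**
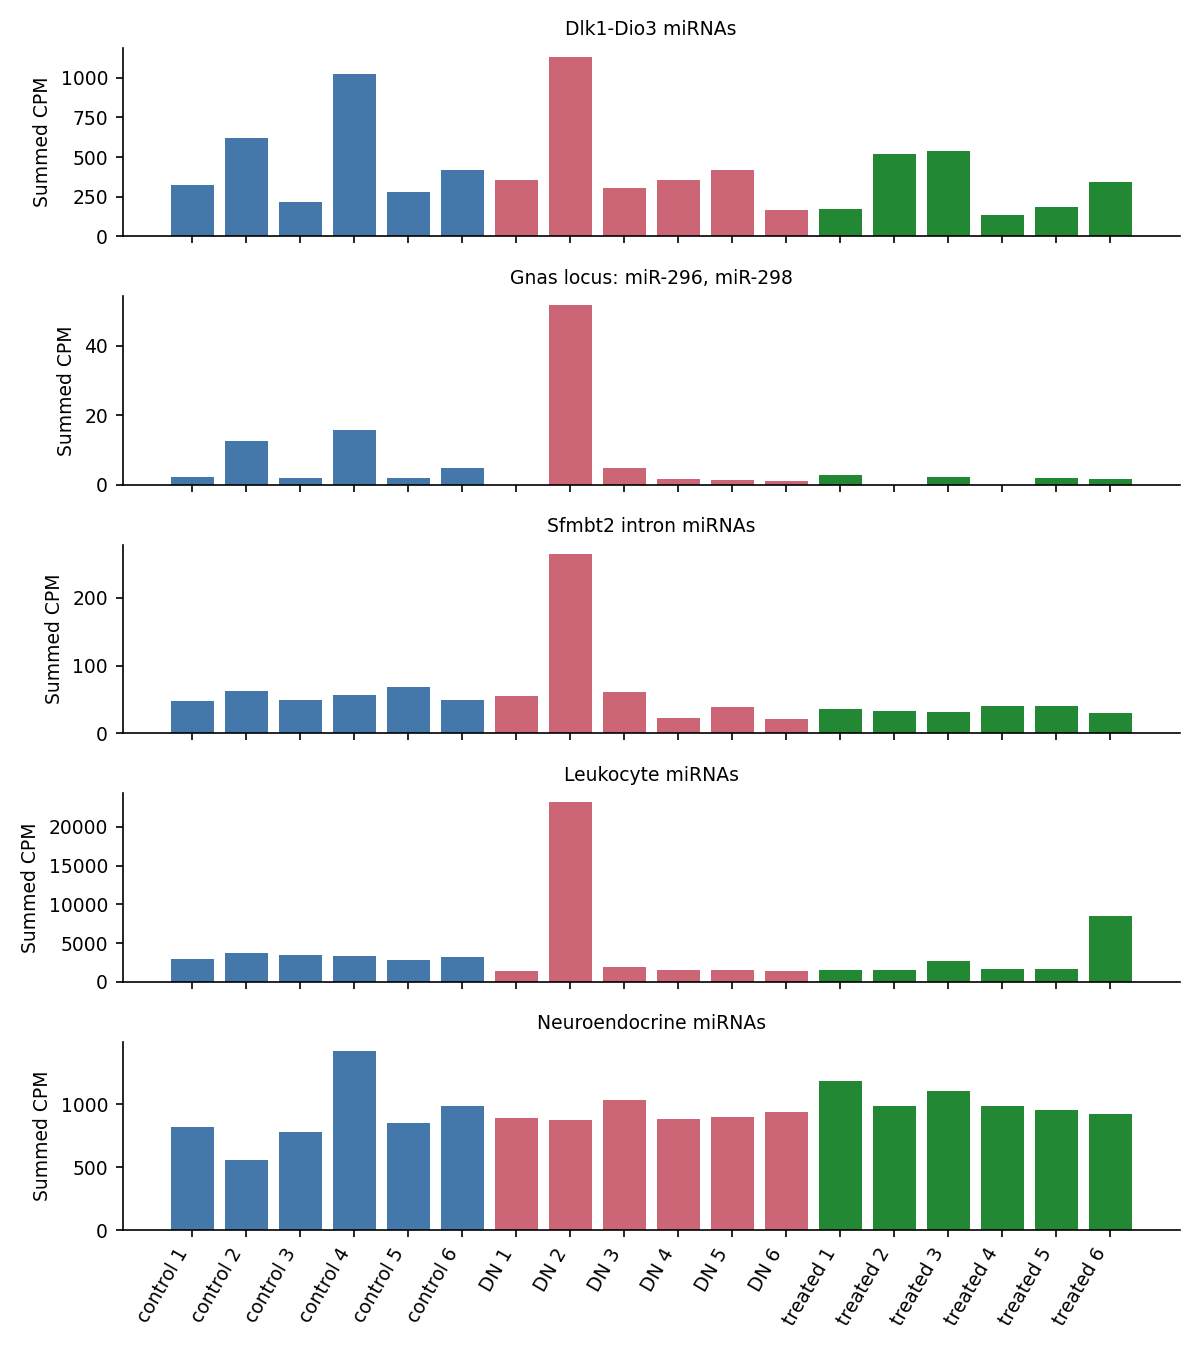
Summed CPM in each library (bars, linear axes from 0 that differ between panels; blue control, pink DN, green treated) of Dlk1-Dio3, Gnas, Sfmbt2, leukocyte and neuroendocrine miRNAs. DN 2 is highest for Dlk1-Dio3, Gnas, Sfmbt2 and leukocyte miRNAs, and control 4 for the neuroendocrine list (1424 CPM).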

How the data were processed

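Per the labels, total kidney RNA went into TruSeq small RNA libraries sequenced on an Illumina HiSeq instrument, and ACGT101-miR removed adapter dimers, low-complexity reads, other RNA families and repeats. Trimmomatic 0.32, BWA, SAMtools and edgeR are named in the submitters' processing notes. Genome build and miRBase release were not given in the sources used here. One table was deposited: the authors give estimated counts (75.7% of values above 0 are whole, 99.0% for members) and a normalized signal per library, which was not used.

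The 350 entries without a name (0.0136% to 0.148% of counts) were left out. Counts were rounded, which moved no total by more than 0.000437%. edgeR 4.0.16 in R 4.3.3 kept 619 of 1184 entries by group (minimum count 10, minimum total 15; 99.972% of counts) and fitted all 18 libraries with TMM factors of 0.831 to 1.2, with group as the only term, by quasi-likelihood and Benjamini-Hochberg adjustment (threshold 0.05). The common biological coefficient of variation was 0.5. CPM use the TMM factors, and log2 CPM a prior count of 2. The script was tested on simulated data. No 2 libraries of a group agreed within sampling noise (chi-square per degree of freedom at least 56.2).

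Members, lists and tests were chosen with earlier results of these data known. Named members are the 10 of highest mean, the 5 of smallest p in each comparison and their tested other arms; miR-369-3p was named after its values were seen, and no member passed the threshold. Alternatives used RLE factors, library size only, other filters, a robust prior, DESeq2 1.42.0, limma 3.58.1 with voom and sample weights, the 2 groups alone, a replicate block, names summed and libraries left out; 2 settings were added after seeing the data, namely leaving out control 2, control 4 and DN 2 together and setting entries listed at 0 to 4 counts.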

Additional observations from a re-analysis of the deposited data

Results flagged for a closer look

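Among the 72 sets checked (23 named members and the cluster level, in 3 groups of 6 libraries), 5 had 1 library whose distance from its nearest neighbour on the log2 CPM scale, as a share of the group's range, exceeded Dixon's 95% critical value. On the linear CPM scale 17 of the 72 sets did, 14 of them with DN 2 as the high library, the summed level of the cluster (1133 CPM), miR-127-3p and miR-382-5p included, 2 with control 4 and 1 with control 2. The 5 on the log2 scale are these. Chance flags about 1 in 20 groups. DN 2 stood above the other DN libraries for miR-134-5p, at 14.4 CPM against 1.22 to 3.06, and for miR-434-3p, at 131 CPM against 21.4 to 37.0. The other 3 were libraries listed at 0. miR-329-3p was listed at 0.0 CPM in treated 4 against 1.86 to 5.5 in the other treated libraries, and miR-433-3p at 0.0 CPM in treated 4 against 1.03 to 2.51. miR-411-3p was listed at 0.0 CPM in treated 1 against 2.47 to 4.39. No member value of 1 to 4 counts is listed in the table.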

How the results depend on the processing

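No alternative to the edgeR fit called a member except limma-voom with sample weights, which called miR-154-5p (log2 fold change −3.35, adjusted p = 0.0417) and miR-382-3p (2.93, adjusted p = 0.0482) in DN against control, 2 members in all, and 1 member, miR-329-5p (−2.63, adjusted p = 0.0494), in treated against control. Each of these has libraries listed at 0, and the cause was not tested.

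Entries called in DN against control, 0 as reported, were 2 with a 10 CPM filter, 3 with DESeq2, 91 with limma-voom, 1 without DN 2 and control 4, and 4 without control 2, control 4 and DN 2. In treated against control, also 0 as reported, they were 17 with DESeq2, 106 with limma-voom, 56 with only the 2 groups fitted, and 1 under either of those omissions. Leaving out 1 library gave 0 to 6 entries in DN against control (6 without DN 2, 6 without DN 3 and 1 without control 2), 0 in treated against DN and 0 to 7 in treated against control (7 without DN 2 and 3 without DN 3), with 0 members called throughout.

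Members higher in DN than control were 6 of 8 with the 10 CPM filter, and 3 to 26 on leaving out 1 library. In treated against DN they were 1 with RLE factors, DESeq2, summed names, the 10 CPM filter (of 8) and only the 2 groups (of 18). They were 0 with library size only (32.0% of all entries) and 0 to 12 on leaving out 1 library. Without DN 2 and control 4 they were 11 of 27 (45.2% of all entries), and without all 3 libraries 10 of 26 (44.1%). In treated against control they were 1 with library size only, the 10 CPM filter and only the 2 groups (of 20), and 8 with limma-voom. They were 7 without DN 2 and control 4 (51.0% of all entries), 10 without all 3 (52.2%), and 2 to 8 on leaving out 1. With library size only the median of all entries is −0.19 in treated against DN (−0.054 as reported) and −0.20 in treated against control (−0.004 as reported).

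With the replicate number as a block, members higher were 10, 3 and 5 in the 3 comparisons, and 0 were called. The number did not pair the libraries: correlations of same-numbered deviations ran from −0.329 to 0.262.

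The fold change of miR-134-5p in DN against control turned to −0.12 without DN 2, within a range of −0.12 to 1.43 on leaving out 1 library. That of miR-127-3p turned to 0.0024 without control 2, 0.12 without control 4, 0.03 without DN 6 and 0.0041 without control 2, control 4 and DN 2, with −0.58 to 0.12 on leaving out 1 library. Depth limits the faint members: 21 of the 29 tested members averaged under 10 CPM, and 5 counts are worth up to 1.57 CPM.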
